A study of Solanum lycopersicum with 9 samples.

Results

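The peripheral zone (PZ) of the tomato shoot apex was set against the mean of its 2 neighbouring tissues, the central zone (CZ) and the leaf primordium (LP). The 3 PZ libraries were compared with 3 CZ and 3 LP libraries out of 9 in all. The comparison covered the 4044 of 34866 genes whose normalized count reached 6 in 1 library or more. For each gene the departure was the mean of the PZ libraries minus the midpoint between the CZ mean and the LP mean, on a log2 scale. A departure of 0 means that the PZ lies midway between the CZ and the LP. This holds on a steady gradient and also where the zones do not differ. A positive departure means that the PZ lies above the midpoint and a negative one that it lies below.

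All samples came from seedlings of the line M82 SP+, 12 to 14 days old, with a daily cycle of 11 h light and 13 h dark. Tissue was cut by laser from cryosections of 10 µm, sections were pooled for each library, and transcripts were read by CEL-Seq, a method for minute amounts of RNA that sequences barcoded 3′ ends. PZ cells were labelled as having partially developed thylakoids and chlorophyll, CZ cells came from the part without chlorophyll, and LP cells from the abaxial (lower) side of a young primordium. The regions were picked by chlorophyll fluorescence, so a difference in greening was part of the choice, and the names PZ, CZ and LP only say which zone a cut region overlapped with. Which seedlings went into which library is not given in the sources used here. Unless stated otherwise, the p-values below rest on the spread between these libraries that is typical of genes of like abundance. They do not use each gene's own spread.

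The PZ is the ring of cells on the flank of the shoot apical meristem (SAM). Stem cells in the CZ divide slowly and supply it with cells, and groups of PZ cells become the founders of the next leaf. Boundary genes mark the cells between the meristem and the new organ, and proplastids begin to turn into chloroplasts as cells leave the CZ and enter the PZ and the leaf.

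A library held 40286 to 144665 reads on genes, with 58412, 62913 and 66596 reads in PZ1, PZ2 and PZ3. A single read was worth a normalized count of 0.288 in the deepest library, CZ1, and of 1.09 in the shallowest, LP3. A gene with no read could therefore hide a count of up to 0.865 to 3.28, the value of 3 reads, by counting error alone. Of the 4044 genes, 2719 reached the minimum of 6 in at least 1 PZ library, and 26 had no PZ read. The minimum was reached in PZ libraries and in no other zone by 774 genes, in CZ alone by 443 and in LP alone by 665. Because 1 library was enough for this, such counts do not mark genes particular to a zone. Zone markers followed the labels in part. STM, a homeobox gene of the meristem, had normalized counts of 12.34, 1.48 and 4.83 in PZ, 9.81, 4.67 and 17.01 in CZ, and 1.3, 0.6 and 1.09 in LP. YABBY1, a gene of abaxial leaf identity, had 6.94, 14.81 and 11.72 in PZ, 14.42, 6.67 and 1.7 in CZ, and 17.7, 22.33 and 40.42 in LP. PZ1 lay with the CZ for STM while PZ2 lay near the LP, so the PZ libraries differed among themselves. In tissue of this kind, fewer cells of a type and less RNA per cell cannot be told apart.

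Few genes were called as departing from the midpoint in the PZ. This does not show that the others followed a gradient. Most genes had no called difference between LP and CZ, and small changes of weak genes are not detectable at this depth. By limma, 3 of 4044 genes (0.0742%) passed an adjusted p of 0.05 and a 1.5-fold difference from the midpoint, 2 higher (0.0495%) and 1 lower (0.0247%) in PZ. The same fit made 58 calls between LP and CZ (1.43%), 13 between PZ and CZ (0.321%), 6 between PZ and LP (0.148%), 40 for the CZ against the mean of PZ and LP (0.989%), and 37 for the LP against the mean of CZ and PZ (0.915%). These comparisons share libraries. At an unadjusted p of 0.05, 230 genes (5.69%) departed from the midpoint, 141 higher (3.49%) and 89 lower (2.2%) in PZ, against 385 genes (9.52%) that differed between LP and CZ. The minimum count in any 1 library admits genes that are high in the PZ alone. It thus favours higher over lower genes, here and in the counts below. The median departure over all genes was 0.05 and 53.1% of the genes lay above the midpoint. With TMM scaling this median was −0.11, so changes of small size depend on the scaling.

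**Figure D1:**
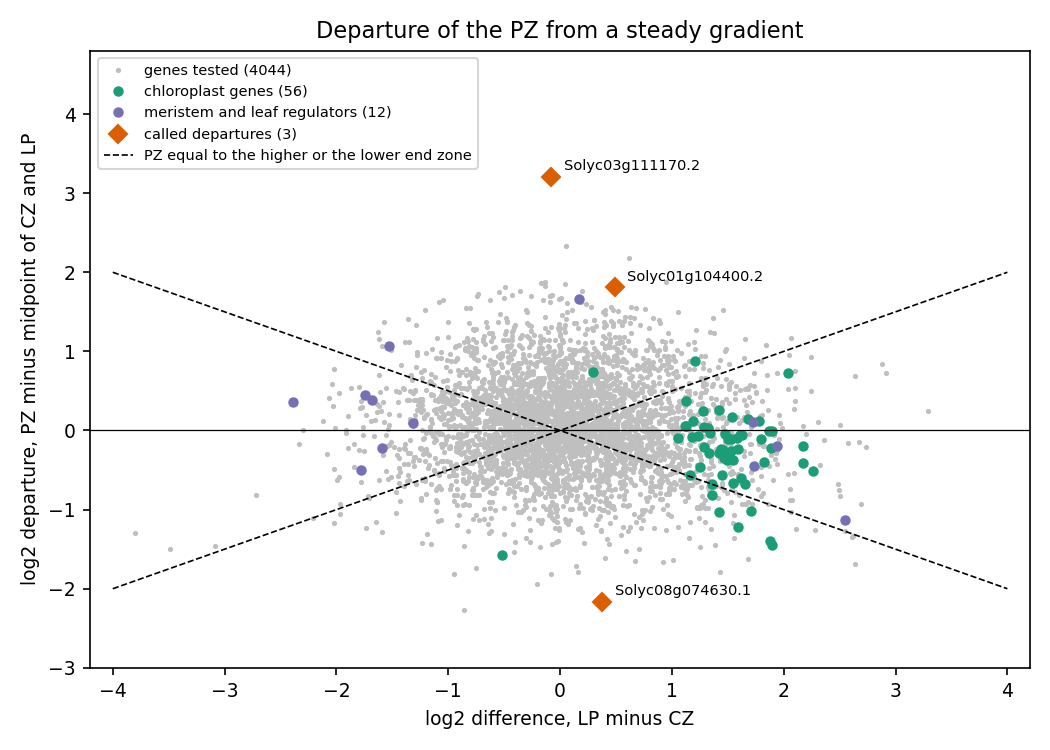
Departure of the PZ from the midpoint of CZ and LP (vertical axis, log2) against the difference between LP and CZ (horizontal axis, log2), with a point for each of the 4044 genes tested. Diamonds mark the 3 called departures, coloured points the 56 chloroplast genes and the 12 meristem and leaf regulators, and the dashed lines mark where the PZ equals the higher or the lower of the other zones. The called genes lie near 0 on the horizontal axis, while the chloroplast genes, with the exception of PRXIIE, lie to the right of it and mostly below the midpoint.

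Solyc01g104400.2 on chromosome 1 (92774674 to 92777517, tomato build SL2.50) was higher in PZ. Its normalized counts were 19.27, 40.72 and 28.96 in PZ, 4.33, 6.67 and 7.66 in CZ, and 12.95, 12.07 and 4.37 in LP. All 3 PZ libraries lay above the other 6, with the smallest margin between PZ1 and LP1. The PZ mean of 29.7 ± 10.7 (SD, n = 3) was 3.7 times the average of the CZ mean of 6.22 ± 1.71 and the LP mean of 9.8 ± 4.72. The departure was 1.81 (standard error 0.39, adjusted p = 0.00719 by limma). PZ exceeded CZ by 2.05 (adjusted p = 0.00348) and LP by 1.56, which missed the threshold (adjusted p = 0.144). The gene was called in 15 of 25 alternatives, with adjusted p values from 0.00166 to 0.816. The departure lay between 1.56 and 2.08 in all 25. Without PZ2 the adjusted p was 0.317 (departure 1.56) and without PZ3 it was 0.0759 (departure 1.79). The call was also lost with TMM scaling, with no filter or either filter on means, by DESeq2, on linear values, and without the trend or the moderation of limma. The sources used here give no name or function for it.

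Solyc08g074630.1 on chromosome 8 (58755673 to 58757636) was lower in PZ. Its normalized counts were 2.31, 0.74 and 1.38 in PZ, 9.52, 7.34 and 8.51 in CZ, and 11.66, 7.85 and 15.29 in LP. Every PZ library lay below every library of the other zones, and the CZ and LP levels overlapped. The PZ counts came from 3, 1 and 2 reads, against 33, 11 and 10 reads in CZ and 27, 13 and 14 reads in LP. The gene fell by 2.16 from the midpoint (standard error 0.5, adjusted p = 0.0172 by limma), with a difference of −1.98 to CZ (adjusted p = 0.107) and of −2.35 to LP (adjusted p = 0.0392). It was called in 12 of 25 alternatives, and lost by DESeq2, on linear values, under each other filter on low counts, and without the trend or the moderation of limma. Without CZ1, CZ3, PZ2, PZ3, LP1 or LP3 the adjusted p was 0.0847, 0.0584, 0.198, 0.0619, 0.101 and 0.102, with departures of −2.16 to −1.93. The departure was below 0 in all 25. Its nearest gene, Solyc08g074620.1, is 8462 bases away. That neighbour had 10.02, 10.36 and 15.17 in PZ, 13.56, 4 and 5.1 in CZ, and 52.68, 16.29 and 26.22 in LP. Its departure of −0.24 did not pass the test (adjusted p = 0.953). Both genes span stretches of equal length, and their sequences were not at hand. If they are alike, short reads may be divided between them, so the neighbour is not an independent contrast.

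The other gene called higher, Solyc03g111170.2 on chromosome 3 (61817681 to 61823869), rested on a single library. Its normalized counts were 117.19, 4.44 and 2.07 in PZ, 0, 0 and 1.7 in CZ, and 1.3, 0 and 0 in LP. PZ1 held 152 reads and 92.5% of the gene's signal, while the 6 CZ and LP libraries lay at or below the value of 3 reads, so no fold is given. The departure was 3.21 on the log2(normalized count + 1) scale (adjusted p = 0.00719 by limma). Without PZ1 no library reached the minimum count. The gene overlaps its neighbour Solyc03g111160.2, and reads on the shared bases may belong to either.

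Large counts in a single library were a property of many genes. In 292 of the 4044 genes a single library held over 50% of the signal, namely in 41, 47 and 33 genes for PZ1, PZ2 and PZ3, in 13, 15 and 30 genes for CZ1, CZ2 and CZ3, and in 28, 38 and 47 genes for LP1, LP2 and LP3. Of the 141 genes higher in PZ at an unadjusted p, 24 were of this kind. Over all 26 settings of the analysis 23 genes were called at least once, 21 higher and 2 lower, and 17 of these 23 had over 50% of their signal in 1 library. Examples chosen after their values were seen were Solyc05g054600.2, with 3.85, 116.97 and 4.14 in PZ, and Solyc03g121210.2, with 5.4, 202.11 and 2.76 in PZ. In the fit used here a gene's own spread has no weight, because limma found no spread of single genes beyond its trend with abundance. When each gene's own spread was used instead, 1 gene was called, Solyc04g074040.2. When the 292 genes were left out, 2 genes were called, Solyc01g104400.2 and Solyc08g074630.1. The source of such counts was not tested.

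**Figure D2:**
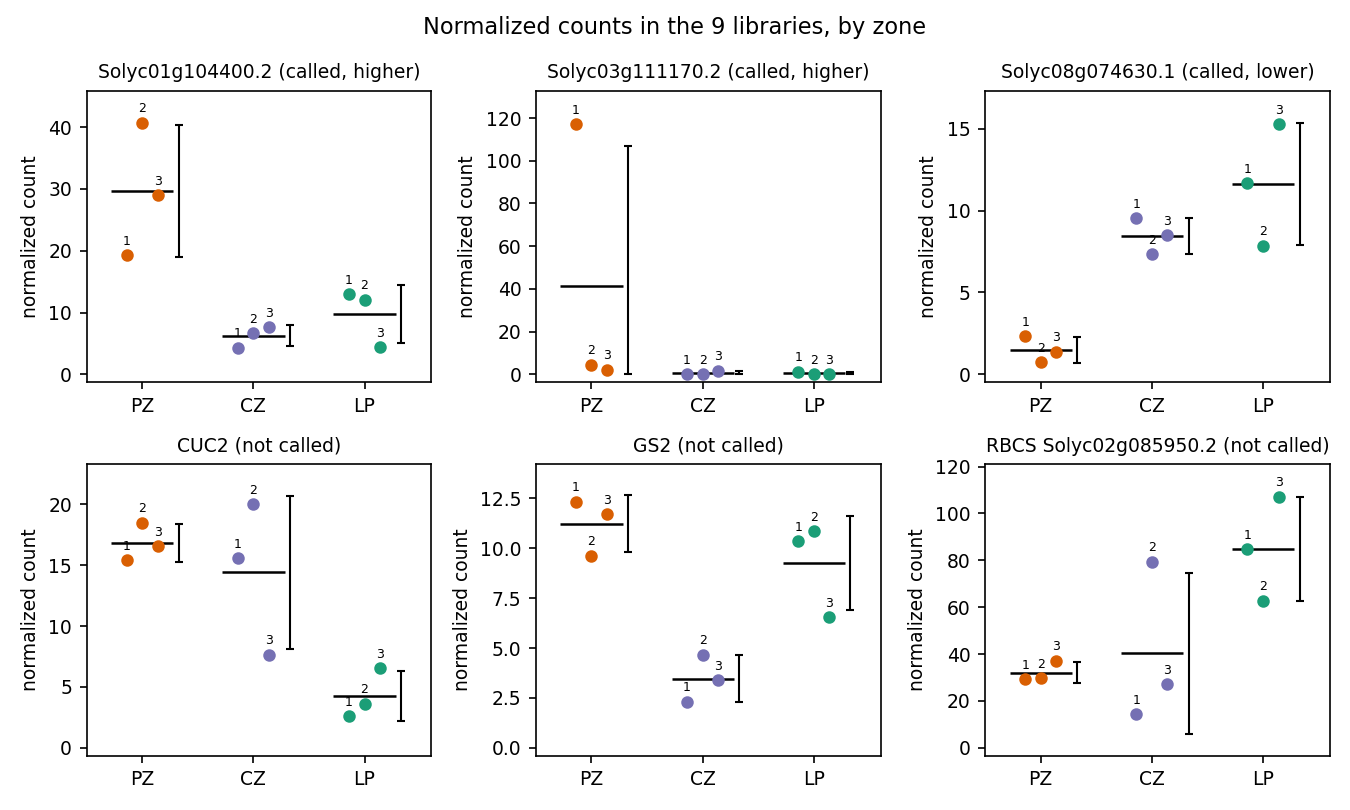
Normalized counts of 6 genes in PZ, CZ and LP, with the 3 libraries of a zone as numbered points, the zone mean as a horizontal line and the SD beside it as a bar (n = 3, cut at 0). Solyc01g104400.2 was higher in each PZ library than in the other 6 and Solyc08g074630.1 lower, whereas Solyc03g111170.2 was high in PZ1 alone and the CUC2 levels of PZ and CZ overlapped.

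The PZ extended beyond both other zones in no gene by the stricter joint test, which asks that PZ differ from CZ and from LP in the same direction. By limma the joint test called 0 of 4044 genes, with a smallest adjusted p of 0.295, and 38 genes passed an unadjusted p of 0.05, 27 higher and 11 lower. edgeR on the recovered reads called 9 genes by this test, all higher in PZ. By zone means alone the PZ was highest for 1444 genes (35.7%), lowest for 1147 (28.4%) and between the others for 1453 (35.9%). The CZ was the middle zone for 32.9% of the genes and the LP for 31.5%, so the PZ took this place little more often. Of the 230 genes that departed at an unadjusted p, 140 had their peak in the PZ and 84 their lowest level there. The remaining 6 had a PZ level between those of CZ and LP.

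All 3 PZ libraries lay above the other 6 in 68 genes (1.68% of the 4044) and below them in 36 genes (0.89%). The CZ libraries stood apart in this way above in 57 and below in 86 genes, and the LP libraries above in 113 and below in 65 genes. The minimum of 6 in any 1 library favours counts above over counts below, and 774 genes reached it in PZ libraries alone. The median departure was 1.12 over the 68 genes and −1.24 over the 36 genes, values that the choice of the genes fixes in direction. Apart from the 3 called genes, none of these 104 genes passed the adjusted threshold in the fit used here.

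Among the genes with all PZ libraries on top, the 12 with the smallest p had departures of 1.07 to 3.21. Solyc01g006450.2, described as an enoyl reductase, which catalyses a reduction step in fatty acid elongation, had 7.71, 29.61 and 13.1 in PZ, 3.46, 6.67 and 1.7 in CZ, and 2.59, 6.64 and 7.65 in LP. Its departure of 1.56 did not pass the adjusted test (adjusted p = 0.322), and PZ1 exceeded LP3 by less than the value of 1 read. Solyc08g081100.2 on chromosome 8 had 11.56, 8.88 and 25.52 in PZ, 2.31, 6 and 4.25 in CZ, and 2.59, 6.64 and 1.09 in LP (departure 1.77, adjusted p = 0.217). It overlaps the next gene. Solyc04g054140.2 on chromosome 4 was even across the PZ libraries, with 5.4, 5.92 and 6.21 in PZ, 2.31, 1.33 and 0.85 in CZ, and 0, 1.81 and 1.09 in LP (departure 1.71, adjusted p = 0.868). Solyc03g079940.2 was more abundant, with 16.96, 10.36 and 17.24 in PZ, 5.77, 6.67 and 7.66 in CZ, and 9.07, 10.26 and 2.18 in LP, and its lowest PZ library was close to LP2 (departure 1.07, adjusted p = 0.868). The other members of these 12, beside the called genes, were Solyc02g084990.2, Solyc06g019170.2, Solyc03g097630.2, Solyc02g083900.2, Solyc03g111390.2 and Solyc01g109910.2, and none of them passed the test. These genes, Solyc04g054140.2 and Solyc03g111170.2 reached the minimum count in PZ libraries alone, so they were tested only because a PZ library was high.

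Among the genes with all PZ libraries at the bottom, the 12 with the smallest p had departures of −2.26 to −0.75. Solyc06g083820.2 on chromosome 6 was the most abundant of them, with 20.05, 15.55 and 15.17 in PZ, 35.77, 33.35 and 28.07 in CZ, and 27.21, 23.54 and 27.31 in LP. Its PZ mean of 16.9 ± 2.71 compared with 32.4 ± 3.94 in CZ and 26.02 ± 2.15 in LP (SD, n = 3 each), a departure of −0.75 that did not pass the adjusted test (adjusted p = 0.868). This gene overlaps its neighbour. Solyc04g074040.2 on chromosome 4 had nearly equal libraries within each zone, with 2.31, 2.22 and 2.07 in PZ, 8.94, 9.34 and 9.36 in CZ, and 4.75, 4.22 and 5.46 in LP. Each of its PZ values stands for 3 reads. Its departure of −1.27 had an adjusted p of 0.868 by limma, and it was called only when each gene's own spread was used (adjusted p = 0.00637). Solyc01g110570.2 on chromosome 1 had 0, 0 and 0.69 in PZ, 4.33, 8 and 8.51 in CZ, and 1.73, 4.22 and 4.37 in LP (departure −2.26, adjusted p = 0.217). Solyc11g065190.1 on chromosome 11 had 6.17, 7.4 and 4.83 in PZ, 15, 13.34 and 14.46 in CZ, and 12.09, 14.48 and 9.83 in LP (departure −0.997, adjusted p = 0.868). Solyc03g008000.1 had no PZ read at all, against 2.31, 2 and 5.96 in CZ and 0.86, 6.64 and 2.18 in LP, which at this depth is not evidence of absence. The others were Solyc01g097140.2, Solyc09g091500.2, Solyc03g043720.2, Solyc07g008180.2, Solyc11g066460.1 and Solyc03g007050.2, none of which passed the test.

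By zone means, most of the meristem and leaf regulators had a PZ level between the other zones. Of 12 such genes, picked by the study on these samples, 0 were called against the midpoint, which at a share of 0.0742% over all genes says nothing about them. A PZ mean between those of CZ and LP was found for 10 genes, against 35.9% of all genes tested, and a peak in the PZ for 2, against 35.7%. Apart from GID1C, the study listed these genes for a difference between LP and CZ. A wide gap leaves more room for a PZ mean in between, so the share of all genes is not a like comparison. The median departure was 0.1, with 7 genes above the midpoint, against 53.1% of all genes, and 5 below. With TMM scaling the median was −0.06, which is 0.05 above the median of all genes under that scaling.

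CUC2, a NAC transcription factor known in Arabidopsis for marking organ boundaries, stayed high in the PZ and was low in the LP. Its normalized counts were 15.42, 18.51 and 16.55 in PZ, 15.58, 20.01 and 7.66 in CZ, and 2.59, 3.62 and 6.55 in LP. The PZ and CZ libraries overlapped and both lay above all LP libraries. The departure was 1.06 (standard error 0.41, unadjusted p = 0.00926, adjusted p = 0.868 by limma), and it lay between 0.85 and 1.21 in all 25 alternatives, none of which called it. The difference between PZ and CZ was 0.3 (adjusted p = 0.974) and that between PZ and LP 1.83 (adjusted p = 0.0611). GID1C, a gibberellin receptor, had 0.77, 19.25 and 4.83 in PZ, 0.29, 1.33 and 0.85 in CZ, and 1.3, 2.41 and 0 in LP. Its departure of 1.66 (unadjusted p = 0.0179, adjusted p = 0.868) rested on PZ2, which held 62.0% of the signal.

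The remaining regulators had departures from −1.14 to 0.45 with adjusted p of at least 0.882. STM (departure 0.36), SPT (0.45), and one of the FD genes, Solyc02g061990.2 (0.38), all lower in LP than in CZ by zone means, lay somewhat nearer to the CZ. AP2 lay nearer to the LP, with 3.85, 1.48 and 2.07 in PZ, 8.37, 8 and 6.81 in CZ, and 1.3, 1.21 and 2.18 in LP (departure −0.49). SVP, a flowering regulator, was close to the midpoint, with 6.17, 5.92 and 5.52 in PZ, 6.92, 10 and 11.06 in CZ, and 2.16, 3.02 and 4.37 in LP (0.09). The other FD gene, Solyc02g083520.2, had 20.82, 6.66 and 8.28 in PZ, 16.15, 27.34 and 25.52 in CZ, and 6.05, 7.85 and 6.55 in LP (−0.22). PZ1 was within the CZ range for this gene while PZ2 and PZ3 were near the LP. YABBY1 (−0.20) and YABBY3 (0.1), which specify abaxial cells, were both near the midpoint. CRK had 0, 0.74 and 1.38 in PZ, 0.87, 0.67 and 0 in CZ, and 4.75, 6.64 and 13.11 in LP, so that its PZ level could not be told from that of the CZ at this depth (−1.14).

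Chloroplast genes tended to lie below the midpoint in the PZ, closer to the CZ than to the LP, though not in PZ3 (median departure 0.07). The list holds 56 nuclear genes for chloroplast proteins that the study picked on these samples for their rise toward the LP, so it is not independent evidence of a direction. By limma 0 of the 56 were called against the midpoint, as against 0.0742% of all genes. At an unadjusted p 0 were higher and 3 lower, against 3.49% and 2.2% of all genes. The departure was below 0 for 42 of 56 genes, against 46.9% of all genes tested, with a median of −0.21, against 0.05 for all genes. Most of all genes had no called gap between LP and CZ. In the 54 listed genes with at least a 1.5-fold gap, the PZ had covered a median of 39.4% of it on the log2 scale. Over all 1667 genes with such a gap the median was 44.1%, near the value of the list. These 1667 genes rise or fall toward the LP, and most of their gaps were not called, so they are only a rough comparison. The PZ mean lay between the other zones for 47 genes, below both for 7 and above both for 2. The choice of genes with a wide gap between LP and CZ leaves more room for a PZ mean in between. Over the alternatives 32 to 50 genes lay below 0 and the median ran from −0.41 to −0.02. The extreme count of 32 was reached without PZ1 (median −0.02) and without CZ2 (median −0.12).

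The PZ libraries differed in this respect by more than the size of the shift. The median departure of the 56 genes was −0.61 in PZ1, −0.21 in PZ2 and 0.07 in PZ3 (SD 0.34), whereas that of all genes was 0.01, 0.05 and 0.05. In PZ1 44 of the 56 genes lay below the midpoint, in PZ2 31 and in PZ3 25. The 56 genes took 1.13%, 1.43% and 1.72% of the reads in PZ, 0.661%, 1.48% and 0.947% in CZ, and 3.11%, 2.22% and 2.80% in LP. The PZ shares thus overlapped with the CZ shares through CZ2 and lay below all LP shares. The mean PZ share of 1.42% was below the midpoint of 1.87%.

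**Figure D3:**
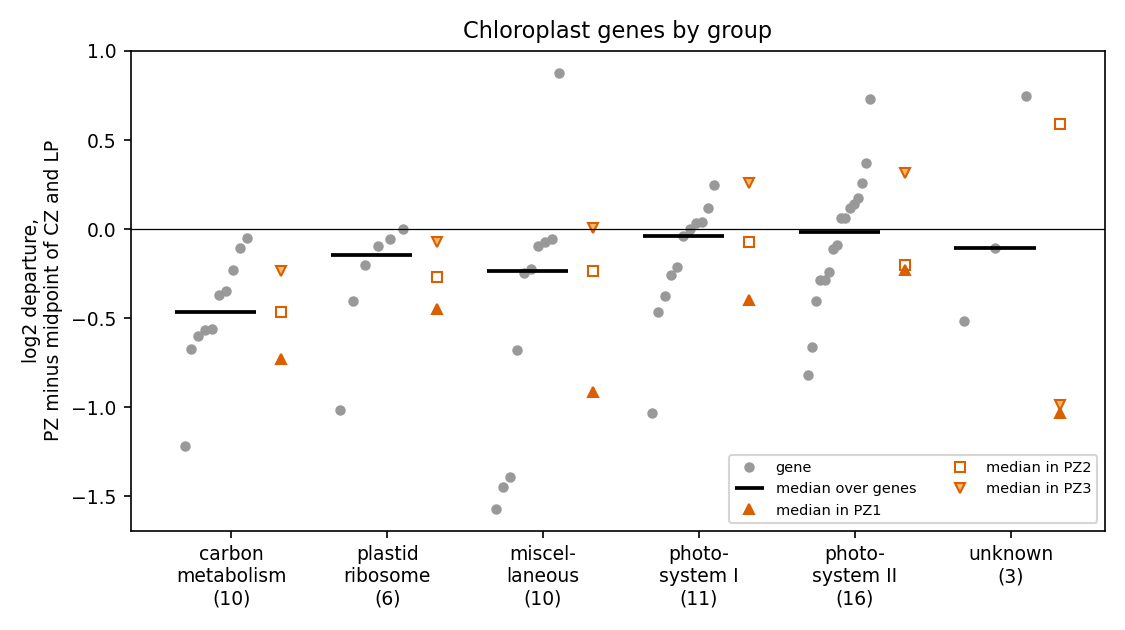
Departure of the PZ from the midpoint (log2) for the 56 chloroplast genes by group, with grey points for genes, a line for their median, and orange symbols for the median of the group in each PZ library. All 10 genes of carbon metabolism lie below 0, those of the photosystems lie on both sides, and the PZ1 median is the lowest of the 3 in every group.

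Genes of carbon metabolism, the enzymes that fix and process CO2, lay below the midpoint to unlike extents. All 10 genes had a departure below 0, with a median of −0.46, and over the alternatives 8 to 10 did so. The values ran from −1.21 to −0.05, the last for FBA2 Solyc02g084440.2 with a standard error of 0.44, so not every gene was shifted. In PZ1, PZ2 and PZ3, 10, 7 and 8 of the genes lay below the midpoint, with medians of −0.73, −0.47 and −0.23. The counts over the alternatives varied as follows. It was 8 of 10 below 0 without CZ2, and 8 of 8 tested under both filters on means. The median was −0.29 without CZ2 or without PZ1 and −0.77 on linear values, the ends of its range. None was called. These 10 genes took 0.223%, 0.269% and 0.335% of the reads in PZ, 0.144%, 0.457% and 0.207% in CZ, and 0.727%, 0.528% and 0.784% in LP. The PZ shares lay within the CZ range and below every LP share. Across the 10 genes the PZ had covered a median of 19.1% of the log2 difference between LP and CZ. It was 44.1% over the 1667 genes with at least a 1.5-fold difference between these zones, which rise or fall and are only a rough comparison.

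Both genes for RBCS, the small subunit of Rubisco, followed this pattern. RBCS Solyc02g085950.2 had normalized counts of 29.3, 29.61 and 37.24 in PZ, 14.42, 79.36 and 27.22 in CZ, and 84.64, 62.76 and 107.06 in LP. The PZ libraries lay within the CZ range and below all LP libraries, and CZ2 overlapped with the LP. Its departure was −0.67 (standard error 0.26, unadjusted p = 0.00951, adjusted p = 0.868 by limma). RBCS Solyc03g034220.2 had 47.03, 58.49 and 73.79 in PZ, 26.83, 74.03 and 45.94 in CZ, and 133.44, 104.4 and 151.85 in LP (departure −0.37, adjusted p = 0.882). Like the LHCB1, PSAH and FD genes, they belong to a family whose members may share short reads, which makes their separate values uncertain. FBPASE, a fructose bisphosphatase of the Calvin cycle, had 0, 2.22 and 2.76 in PZ, 2.6, 3.33 and 0.85 in CZ, and 8.2, 7.85 and 8.74 in LP. Its departure was −1.21 (unadjusted p = 0.0438, adjusted p = 0.868).

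The photosystem genes lay on both sides of the midpoint. Of 16 genes of photosystem II 8 lay below 0 and 8 above, with a median of −0.01, and of 11 genes of photosystem I 7 lay below, with a median of −0.04. The count for photosystem II ran from 5 to 13 below over the alternatives and its median changed sign, with 0.11 without CZ2 and 0.1 without PZ1. For photosystem I the count ran from 6 to 10 below, with 10 of 11 under TMM scaling and on linear values. With TMM scaling 12 of 16 genes of photosystem II lay below, where the median of all genes was −0.11. These counts thus depend on the scaling. The PZ had covered a median of 49.1% of the difference between LP and CZ for photosystem II and 47.3% for photosystem I. PSBO2, a subunit of the oxygen-evolving complex, was at the low end with 4.63, 11.85 and 2.76 in PZ, 3.75, 10 and 5.96 in CZ, and 21.59, 14.48 and 16.39 in LP (departure −0.82, adjusted p = 0.868). At the high end, the antenna gene LHCB1.3 Solyc03g005770.1 had 6.17, 4.44 and 6.9 in PZ, 0.87, 3.33 and 0 in CZ, and 12.95, 8.45 and 3.28 in LP (0.73, adjusted p = 0.928). The antenna gene LHCB4.2 had 11.56, 9.62 and 15.17 in PZ, 4.33, 10 and 4.25 in CZ, and 17.27, 11.47 and 13.11 in LP (0.37, adjusted p = 0.942). In photosystem I, PSAH Solyc12g044280.1 had 3.08, 1.48 and 2.07 in PZ, 1.44, 6 and 2.55 in CZ, and 10.36, 10.86 and 7.65 in LP (−1.03, adjusted p = 0.868), so that the PZ lay within the CZ range. PSAN, which helps to dock plastocyanin, lay nearer to the LP with 18.5, 23.69 and 22.07 in PZ, 6.92, 13.34 and 14.46 in CZ, and 28.93, 21.73 and 36.05 in LP (0.25, adjusted p = 0.944). The difference between carbon metabolism and the photosystems was not tested.

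All 6 genes for plastid ribosomal proteins had an estimate below 0, with a median of −0.15, and 3 to 6 did so over the alternatives. RPL6 (−0.0003, standard error 0.50), RPL27 (−0.06, 0.63) and RPS1 (−0.09, 0.56) could not be told from the midpoint. The median was −0.055 without PZ1, −0.36 without PZ3 and −0.53 on linear values, so its size rested on single libraries. PSRP-3, a protein of the small plastid ribosomal subunit, had 1.54, 2.22 and 2.07 in PZ, 2.31, 2 and 2.55 in CZ, and 6.91, 10.86 and 12.02 in LP, so that the PZ and CZ means differed by less than the value of 1 PZ read (departure −1.02, adjusted p = 0.878). Of 10 miscellaneous genes 9 lay below 0. PRXIIE, a peroxiredoxin that detoxifies peroxides, had 0, 0.74 and 1.38 in PZ, 4.04, 12.67 and 1.7 in CZ, and 6.05, 1.81 and 2.18 in LP. It was below every other library in PZ, but by few reads (departure −1.57, unadjusted p = 0.016, adjusted p = 0.868). CRR7 (−1.44) and CDSP32 (−1.39) had at most 0.74 in a PZ library.

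GS2, the plastid glutamine synthetase that assimilates ammonium, stood at the opposite end of the list. It had 12.34, 9.62 and 11.72 in PZ, 2.31, 4.67 and 3.4 in CZ, and 10.36, 10.86 and 6.55 in LP. The PZ libraries lay above all CZ libraries and overlapped with the LP. The departure was 0.88 (standard error 0.46, unadjusted p = 0.0537, adjusted p = 0.868 by limma), with a PZ mean of 11.2 ± 1.43, against 3.46 ± 1.18 in CZ and 9.26 ± 2.36 in LP (SD, n = 3 each). The other gene of the list with its peak in the PZ, Solyc02g049070.2, had 0, 2.22 and 34.48 in PZ and rested on PZ3 alone.

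The genes called between LP and CZ were then examined for where the PZ lay on it. These 58 genes (1.43% of 4044) were chosen by a contrast that does not use the PZ, although the CZ and LP libraries enter both values. The 58 calls became 26 without LP1, 32 without CZ3, 24 with a filter on zone means, 32 with no filter, 37 with TMM scaling, 2 on linear values and 0 without the trend or the moderation of limma. In 5 of the 58 genes a single library held over 50% of the signal. Of the 48 genes higher in LP (1.19%), 46 had a PZ mean between the other zones, against 35.9% of all genes tested, although a wide gap between LP and CZ leaves more room for this. A called departure was found for 0 (0.0742% of all genes), and 5 passed an unadjusted p (5.69% of all genes). The departure was above 0 for 27 and below for 21, with a median of 0.07. The median ran from −0.20 to 0.21 over the alternatives. The PZ had covered a median of 55.0% of the log2 difference between LP and CZ, against 44.1% over the 1667 rising or falling genes named above, a rough comparison only. Of the 48 genes, 7 lay under 33%, 25 between 33% and 67% and 16 over 67%. A gap between LP and CZ that arose from noise would also give values centred near 50%. A median near 50%, here or in the lists above, therefore does not by itself show a steady gradient. All 10 genes lower in LP (0.247%) had a PZ mean between the others, with a median of 50.3% covered and a range of 34.1% to 97.3%. The top values rested on single CZ libraries, with 97.3% for Solyc09g082110.2, of whose signal CZ3 held 98.5%, and 93.0% for Solyc08g077360.2, of whose signal CZ1 held 94.4%. Without these genes the median was 42.98% and the highest value 84.1%.

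**Figure D4:**
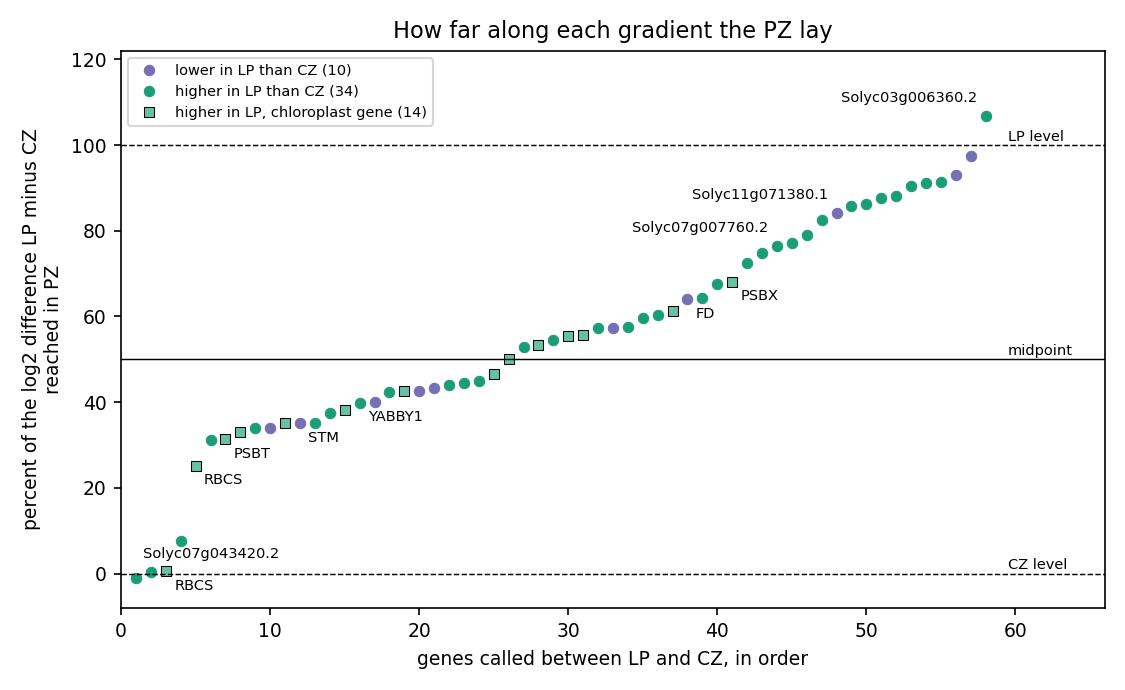
Percent of the log2 difference between LP and CZ that was reached in PZ (vertical axis), for the 58 genes called between LP and CZ in order of that value. The horizontal lines mark the CZ level (0), the midpoint (50) and the LP level (100). Both RBCS genes lie in the lower part, and single genes spread over the whole range.

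Of the 16 genes with over 67% covered, Solyc07g007760.2 on chromosome 7 had the smallest p, with 73.24, 129.56 and 144.13 in PZ, 12.4, 55.35 and 27.22 in CZ, and 174.89, 245.62 and 117.98 in LP. The PZ libraries lay above all CZ libraries and overlapped with the LP through LP3. The PZ had covered 76.3% of the difference, and the departure was 0.69 (unadjusted p = 0.00151, adjusted p = 0.51 by limma). It was called without PZ1 or without CZ2. Solyc03g006360.2 had 7.71, 17.03 and 9.65 in PZ, 1.15, 3.33 and 0.85 in CZ, and 6.05, 26.55 and 5.46 in LP, and was the only one of the 48 with a PZ mean above the LP mean on the log2 scale (departure 1.17, adjusted p = 0.868). Among the genes lower in LP, Solyc11g071380.1 had 3.08, 0.74 and 1.38 in PZ, 12.4, 26.68 and 34.03 in CZ, and 1.3, 0 and 1.09 in LP. Its PZ level was near that of the LP in all 3 libraries, with 84.1% of the difference covered (departure −1.30, unadjusted p = 0.0222, adjusted p = 0.868).

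Near the low end Solyc07g043420.2 had 11.56, 31.09 and 6.9 in PZ, 22.79, 18.01 and 5.96 in CZ, and 79.46, 51.3 and 34.96 in LP. PZ and CZ overlapped, though PZ2 lay above every CZ library and not far below LP3. Every LP library lay above both zones, with 0.297% of the difference covered in PZ on average (departure −0.93, unadjusted p = 0.00379, adjusted p = 0.744). RBCS Solyc02g085950.2 had covered 0.5% and RBCS Solyc03g034220.2 25.2%. PSBT, a small photosystem II subunit, had 7.71, 13.33 and 17.24 in PZ, 6.64, 9.34 and 5.96 in CZ, and 53.55, 24.14 and 36.05 in LP, with 31.4% covered. Solyc01g006400.2, described as a cysteine-rich extensin-like protein, a class of cell wall proteins, had 14.65, 4.44 and 5.52 in PZ, 8.08, 2.67 and 3.4 in CZ, and 28.07, 20.52 and 10.92 in LP, with 33.9% covered. The most negative departure of the 48, −1.33 for Solyc07g054070.2, came from LP1, which held 237.07 against at most 4 in any other library.

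The place of the PZ on the gradient varied between its libraries here too. For the 48 genes higher in LP, the median departure was −0.27 in PZ1, 0.29 in PZ2 and 0.27 in PZ3 (SD 0.31). Some of these genes were high in the libraries numbered 2. In 11 of the 48 genes (22.9%) library 2 was the highest of the 3 in every zone, against 6.48% of all genes tested. Solyc10g086570.2 was an example, with 12.34, 51.82 and 21.38 in PZ, 4.33, 24.01 and 7.66 in CZ, and 36.71, 105.61 and 33.87 in LP. What the libraries of a number share was not tested.

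Descriptions were at hand for 109 of the 4044 genes, most of them on chromosome 1. None of them was called, 8 were higher (3.49% of all genes) and 2 lower (2.2% of all genes) in PZ at an unadjusted p, and 47 of 109 lay below the midpoint (46.9% of all genes), so that the lower and the below-midpoint counts were near those of all genes. Of the 6 genes described as ribosomal proteins, 5 lay below the midpoint and had their lowest level in the PZ by zone means, with a median departure of −0.48. Over all genes 46.9% lay below the midpoint and 28.4% had their lowest level in the PZ, and these 6 genes from an incomplete set of descriptions were not tested as a group. Solyc01g009520.2 was the lowest of these, with 5.4, 9.62 and 2.07 in PZ, 11.83, 14.01 and 10.21 in CZ, and 12.95, 6.64 and 9.83 in LP. PZ lay below all CZ libraries and overlapped with the LP (departure −0.97, unadjusted p = 0.0246, adjusted p = 0.868). The exception was a gene for ribosomal protein S27, Solyc01g008080.2, with 56.28, 62.93 and 60 in PZ, 58.27, 72.03 and 98.68 in CZ, and 44.05, 50.69 and 32.77 in LP, close to the midpoint (0.09). Its neighbour Solyc01g008090.2, described in the same way, had a departure of −0.51, and reads of such similar genes may be divided between them.

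Some of the 8 described genes higher in PZ at an unadjusted p are given here. The highest departure, 1.65 for the GDP-mannose transporter Solyc01g008690.2, rested on PZ2, which held 73.0% of the signal. Peroxidase 1, Solyc01g007950.2, had 6.17, 2.96 and 4.14 in PZ and at most 2.02 in any other library (1.38, adjusted p = 0.868). The JAZ protein gene Solyc01g005440.2, of a family that represses jasmonate responses, had 6.94, 11.85 and 9.65 in PZ, 2.88, 5.34 and 1.7 in CZ, and 1.73, 11.47 and 5.46 in LP (departure 1.06, adjusted p = 0.868). LP2 overlapped with the PZ. Solyc01g008330.2, described as an acetyl-CoA carboxylase, which makes the building block of fatty acids, had 6.17, 22.21 and 13.1 in PZ, 9.23, 4.67 and 12.76 in CZ, and 3.89, 3.02 and 7.65 in LP, overlapping with both zones (0.89, adjusted p = 0.868). Solyc01g006970.2, described as an RNA helicase, had 0, 46.64 and 2.07 in PZ, so that its departure of 1.51 rested on PZ2. On the low side, Solyc01g005240.2, an aspartokinase of amino acid synthesis, had 0, 0.74 and 2.07 in PZ, 1.73, 6 and 4.25 in CZ, and 5.18, 6.03 and 4.37 in LP (−1.61, adjusted p = 0.868).

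Of genes on the plastid genome only ycf1 and clpP reached the minimum. How well CEL-Seq captures transcripts of the plastid genome was not tested, so this does not measure how abundant they are. The gene ycf1 had 10.02, 8.14 and 8.28 in PZ, 6.35, 6.67 and 8.51 in CZ, and 4.32, 6.03 and 4.37 in LP, overlapping between PZ and CZ, with a departure of 0.50 that did not pass the test (adjusted p = 0.942). clpP, a protease subunit, had 5.4, 10.36 and 10.34 in PZ, 4.9, 18.01 and 13.61 in CZ, and 2.59, 22.93 and 15.29 in LP, which overlapped in all zones (−0.29, adjusted p = 0.944).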

How the data were processed

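CEL-Seq was performed on laser-captured PZ, CZ and LP tissue, with 3 libraries per zone. According to the methods, the authors mapped reads with Bowtie2 2.1.0 (local mode) on tomato build SL2.50 plus the chloroplast genome, counted them with a script based on HTSeq and used DESeq2 1.4.0. How the counts were normalized, and whether molecular identifiers were collapsed, is not given in the sources used here. The deposited values are a signal, namely reads per gene divided by a factor of the library. Dividing by a step found for each library turned 100% of them into whole numbers (tolerance 0.0051), the reads per gene, 40286 to 144665 per library. At this depth small changes of weak genes are not detectable.

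Genes that reached a normalized count of 6 in any library were fitted with limma 3.58.1 (R 4.3.3) on log2(normalized count + 1), with a term for zone and the trend option for variances. The scale understates the fold of weak genes. p-values were adjusted by Benjamini and Hochberg over 4044 genes, and genes were called at an adjusted p up to 0.05 and 1.5-fold (0.585 in log2). Unless a tool is named, adjusted p values come from limma. The unadjusted counts use p under 0.05.

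The genes named are the called ones, the 12 in each direction with the smallest p among genes whose PZ libraries did not overlap with the others, the 12 regulators, and the chloroplast genes with the 5 highest and 5 lowest departures. Others were named after their values were seen. The members and lists were chosen with earlier results of these data known. Alternatives were pseudocounts of 0.5 and 2, filters on zone means, overall means or none, equal totals, TMM scaling, count tests on recovered reads (edgeR 4.0.16, DESeq2 1.42.0), linear values, a replicate block, no trend, robust moderation and leaving out each library. Shares of reads are given without a test. Figures were drawn with matplotlib 3.10.9. Descriptions came from the study's supplement, and gene positions from the deposited table.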

Additional observations from a re-analysis of the deposited data

How the results depend on the processing

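The 3 calls against the midpoint became 5 with a pseudocount of 2, 0 with a filter on zone means (at least 6) or on the mean of all libraries (at least 3), 1 with no filter, 2 with TMM scaling, 20 by edgeR (19 higher, 1 lower, 17 with over 50% of their signal in 1 library), 0 by DESeq2, 0 on linear values and 0 without the trend, and they ranged from 1 to 8 when a library was left out. DESeq2 and the linear values had 178 and 192 genes at an unadjusted p under 0.05. The lowest number, 1, was that without PZ2, the highest, 8, that without PZ1, and it was 5 without CZ2 or LP2. In 2 alternatives chosen after seeing the data, limma without moderation called 1 gene and leaving out genes with over 50% of their signal in 1 library left 2. The 0 genes of the joint test became 1 with a pseudocount of 2, 1 with no filter, 9 by edgeR and 0 to 1 without a library. The median departure of all genes of 0.05 was 0.0200 with a filter on zone means, 0.0032 with no filter, −0.0109 with equal totals, −0.11 with TMM scaling, −0.0039 by edgeR, 0.0109 on linear values, and 0.0264 to 0.0718 without a library. Medians of the chloroplast genes, the 12 regulators and the genes higher in LP stayed within 1 SD of the PZ libraries, at −0.30 to −0.02, −0.12 to 0.24 and −0.02 to 0.21 without a library. The cause of these differences was not tested beyond the number of genes or samples that each alternative changes.

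Libraries of a zone share the numbers 1 to 3 in the labels, and the labels do not say what a number stands for. The numbers were not taken to pair the samples, because the sources do not state a pairing. The correlations were weak, with 2 of 9 same-numbered pairs above 0.1, but this limit cannot exclude a pairing. Deviations of same-numbered libraries correlated at 0.0272 to 0.112 over 9 pairs and those of other libraries at −0.0958 to 0.0426 over 18 pairs. All 9 same-numbered values were above 0 and 16 of the 18 others were below 0. Each of the 9 libraries correlated best with one of its own number, which is a hint of a pairing. The study outlines all 3 regions on a single section, but does not say whether libraries of a number shared an apex. The main fit ignores any such pairing. A fit with the replicate number as a block gave 5 calls, 4 higher and 1 lower, which included the 3, and 74 calls between LP and CZ, against 58 without the block.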
